A study of Mus musculus with 6 samples.

Results

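The interferon regulatory factors are a family of transcription factors, and 8 of them, Irf1, Irf2, Irf3, Irf4, Irf5, Irf7, Irf8 and Irf9, were followed here in mouse bone marrow cells transduced with MN1. Each gene was read from the probe set that carries its symbol and no other. Irf1 has more than 1 such probe set, and its brightest was used. The 8 genes are among 19938 tested.

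Bone marrow cells had been transduced with an MSCV retrovirus that carried the MN1 oncogene and a fluorescent reporter, or with the empty vector that carried only the reporter. MN1 encodes a transcriptional coregulator that is often highly expressed in acute myeloid leukaemia, and MSCV expresses its cargo from a viral promoter in any cell it enters. Both groups were sorted for the reporter 72 hours after transduction, and the series text describes 3 independent experiments. The 3 MN1 arrays and 3 empty vector arrays were hybridised with whole-transcript target made from 200 ng of RNA. The reporter is called YFP in the series text and GFP in the sample labels, and the labels leave out the strain, age and sex of the donor mice.

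Members of the family share an amino-terminal DNA-binding domain, marked by a repeat of tryptophans, that reads GAAA-rich elements such as the interferon-stimulated response element. Irf3, Irf5 and Irf7 lie latent in the cytoplasm until pattern recognition receptors trigger their phosphorylation, and then switch on type I interferon genes. Irf9 binds DNA together with the signal transducer Stat2 downstream of the type I interferon receptor. Irf1 is induced by interferon gamma and activates antigen presentation genes, and Irf2 competes with it for the same elements. Irf4 and Irf8 pair with the Ets factors Spi1 and Spib. In marrow, Irf8 is known for directing progenitors towards monocytes and dendritic cells and away from neutrophils, and Irf4 for its roles in lymphocytes, dendritic cells and alternatively activated macrophages.

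The promoter sequences are from RefSeq (GRCm38.p6). They end at the base before the annotated start, and are shown for Irf7, which had the largest difference of the 8 genes, and for the 3 genes whose windows held an interferon-related element. All 8 genes matched the promoter table, with 11 windows, each of 250 bases before and 50 after an annotated start. Capitals mark matches, on either strand, to the core of the interferon-stimulated response element (a pair of GAAA repeats 2 bases apart), to the core of the gamma-activated sequence of interferon gamma targets (TTCNNNGAA, the same on both strands) and to the core of the TATA box (TATAAA).
Irf7, chr7:141266425-141266674, minus strand: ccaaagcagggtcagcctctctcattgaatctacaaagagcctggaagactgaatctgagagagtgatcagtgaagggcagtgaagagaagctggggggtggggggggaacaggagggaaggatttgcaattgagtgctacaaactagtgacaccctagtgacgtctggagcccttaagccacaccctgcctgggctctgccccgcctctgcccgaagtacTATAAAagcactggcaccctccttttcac
Irf1, chr11:53769764-53770013, plus strand: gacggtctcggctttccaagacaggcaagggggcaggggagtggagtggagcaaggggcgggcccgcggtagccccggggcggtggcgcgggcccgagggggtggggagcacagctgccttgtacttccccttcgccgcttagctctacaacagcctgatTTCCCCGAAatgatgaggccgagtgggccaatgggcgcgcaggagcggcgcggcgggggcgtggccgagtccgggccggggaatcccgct
Irf2, chr8:46739495-46739744, plus strand: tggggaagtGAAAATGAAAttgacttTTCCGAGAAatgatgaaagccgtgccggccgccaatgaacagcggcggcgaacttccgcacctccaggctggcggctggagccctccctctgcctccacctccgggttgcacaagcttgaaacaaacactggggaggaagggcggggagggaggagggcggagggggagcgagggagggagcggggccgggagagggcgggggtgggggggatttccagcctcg
Irf8, chr8:120736108-120736357, plus strand: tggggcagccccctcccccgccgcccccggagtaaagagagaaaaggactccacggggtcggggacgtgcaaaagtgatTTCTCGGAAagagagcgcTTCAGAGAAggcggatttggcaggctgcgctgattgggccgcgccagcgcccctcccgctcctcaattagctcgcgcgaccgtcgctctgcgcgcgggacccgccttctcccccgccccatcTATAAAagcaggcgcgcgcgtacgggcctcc

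The response element core was found in the window of 1 of the 8 genes, Irf2, starting 241 bases before the start. The gamma-activated core was found in windows of 3 genes, at 90 bases before the start of Irf1, at 224 in Irf2, and at 171 and 153 in Irf8. The TATA core was found in Irf4, Irf7 and Irf8, at 26, 29 and 31 bases before the start. No match overlapped another. Among all 32851 promoter windows of the table, 3.44% held the response element core, 8.30% the gamma-activated core and 13.6% the TATA core. These shares are per window, while the counts above are per gene, and the 8 genes had 11 windows. A match is a description of the letters and not a measured binding site.

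Setting MN1 against empty vector shows how these genes differ 72 hours after MN1 is introduced. Of the 8 genes, 7 were higher and 1 lower with MN1, where 43.3% of all genes tested were higher. Their median log2 difference was 0.21, beside -0.03 over all genes. All 8 lay outside the dimmest 40% of probe sets. Among genes outside it the median was 0.02, and at an unadjusted p under 0.05 (limma) 662 were higher and 369 lower. The share of those brighter genes that were higher by any size was not counted. Irf7 stood 2.05-fold higher, and it was the only 1 of the 8 that was higher by 2-fold or more, as were 0.993% of all genes. None passed the test: 0 of the 8 genes had an adjusted p under 0.05 (limma, Benjamini-Hochberg over all genes), as did 0.0% of all genes in either direction. At an unadjusted p under 0.05, 1 of the 8 was higher, Irf7, and 0 were lower, against 4.17% and 4.23% of all genes. For 1 of the 8 genes every MN1 value exceeded every empty vector value, against 5.71% of all genes, and for 0 every MN1 value was the lower, against 10.3%. All values are log2 expression values, and all differences are MN1 minus empty vector.

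**Figure D1:**
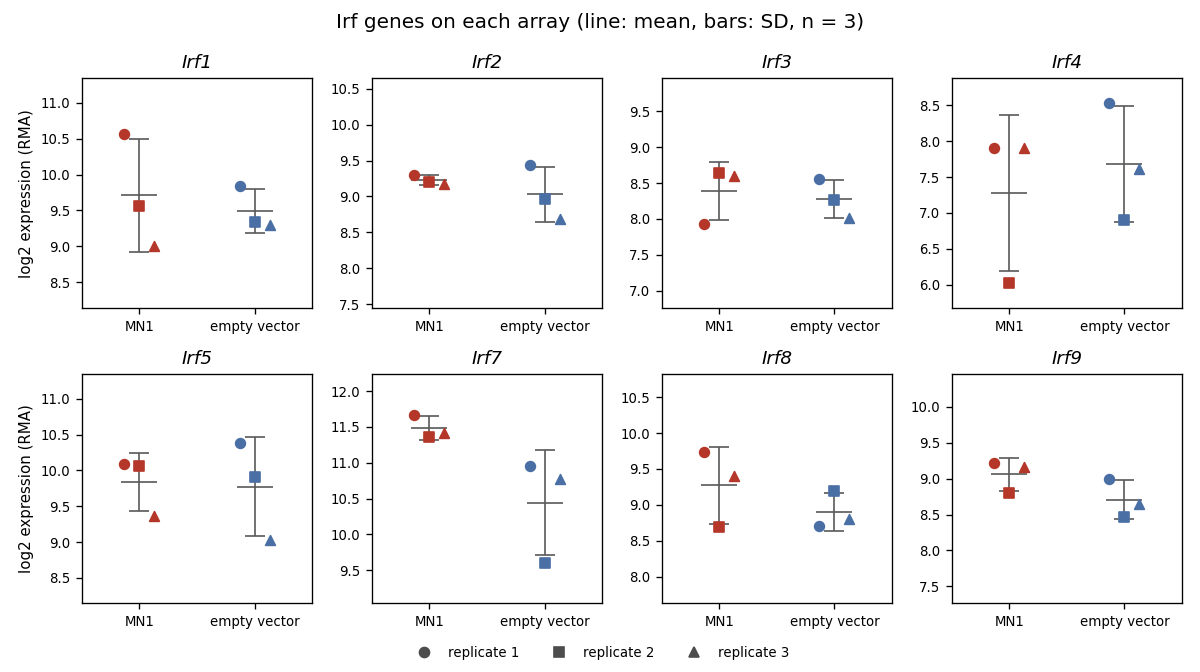
Log2 expression (RMA) of the 8 Irf genes on each array, 1 panel per gene, with MN1 in red and empty vector in blue, the marker shape giving the replicate number, the horizontal line the mean and the bars the SD (n = 3). Every panel spans the same number of log2 units; only in the Irf7 panel do the groups stand apart, with MN1 at 11.35 to 11.67 and empty vector at 9.61 to 10.95.

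Some facts of the arrays bear on every value. The mouse Mn1 probe set measured 6.47, 6.62 and 6.08 with MN1, against 5.34, 5.41 and 4.80 with empty vector. The groups did not overlap, and the adjusted p was 0.584 (limma). These values lie near the array medians, which were 5.82 to 6.01. Whether this probe set reads the transduced copy was not tested. Empty vector replicate 2 had the lowest mean of 3 Y-linked genes, 3.78, where the others ran from 5.78 to 7.57. It also had the highest mean of 9 neutrophil markers, 12.50, where the other arrays ran from 8.47 to 11.49. In the neutrophil markers empty vector replicate 1 was near it, at 11.49, and empty vector replicate 3 lay far below both, at 8.47. Y-linked genes are transcribed only in male cells. Their mean was 7.11, 6.12 and 7.57 on MN1 replicates 1, 2 and 3, and 5.78, 3.78 and 7.04 on the empty vector replicates. Replicate 2 was thus the lowest of each group. Monocyte and macrophage markers were higher with MN1 for 5 of 6 genes, with a mean of 10.85 to 11.31 on MN1 arrays and 9.99 to 10.52 on empty vector arrays. Neutrophil markers were higher for 0 of 9, with a mean of 9.15 to 10.45 with MN1 and 8.47 to 12.50 with empty vector. Stem and progenitor markers were higher for 7 of 8 genes, with a mean of 8.37 to 9.14 with MN1 and 7.57 to 8.12 with empty vector, and megakaryocyte markers for 5 of 5, at 9.89 to 11.54 with MN1 and 8.79 to 10.26 with empty vector. T and natural killer cell markers were lower for 7 of 8, at 5.90 to 6.25 with MN1 and 6.42 to 6.71 with empty vector. Cd3e, Cd3d, Cd3g, Cd2, Cd8a and Klrb1c were dimmer than most genes tested, at means of 3.72 to 5.88 over all arrays. The bright markers Thy1 and Nkg7 differed by -1.10 and -0.39. Erythroid markers were lower for 3 of 4, at 6.12 to 6.94 with MN1 and 6.87 to 7.55 with empty vector, and eosinophil, basophil and mast cell markers for 7 of 8, at 9.47 to 10.70 with MN1 and 9.51 to 11.24 with empty vector. RMA values hold no zero and no detection call was used, so no marker can be called absent. In these bulk samples, fewer cells of a type and less RNA per cell cannot be told apart.

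Among the factors that lie latent until a receptor signals, Irf7 differed most. Irf7, the inducible amplifier of type I interferon production, measured 11.67, 11.35 and 11.42 on MN1 replicates 1, 2 and 3, against 10.95, 9.61 and 10.77 on the empty vector replicates. The groups did not overlap, and the MN1 arrays lay close together while empty vector replicate 2 lay far below its group. The means were 11.48 ± 0.17 with MN1 and 10.44 ± 0.73 with empty vector (SD, n = 3 each). The difference was 1.04 ± 0.35 (SE) on the log2 scale, with an adjusted p of 0.584 (limma). The exact two-sided permutation test of this gene alone gave p = 0.1, the smallest that 3 arrays against 3 allow. The difference was 0.62 ± 0.14 without empty vector replicate 2, and 0.57 ± 0.29 with the Y-linked mean as a covariate. The mean of the monocyte and macrophage markers, also lowest on that array although single markers such as Ccr2 were not, was 11.31, 10.85 and 11.01 on MN1 arrays, against 10.52, 9.99 and 10.39 on empty vector arrays. The means of the stem and progenitor and of the megakaryocyte markers were lowest there too. Markers of plasmacytoid dendritic cells, which hold much Irf7, were higher for 3 of 6 genes, with means of 6.70 to 7.11 on MN1 arrays and 6.44 to 7.16 on empty vector arrays. The 3 were Bst2, Tcf4 and Ly6d, by 0.78, 0.33 and 0.13, and Bst2 is also among the interferon-stimulated genes below. Siglech, Ccr9 and Pacsin1 differed by -0.11, -0.01 and -0.20. The part of these cell types in the Irf7 difference was not tested.

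Irf3, which is made in most cells and is activated rather than induced, measured 7.93, 8.65 and 8.60 on the MN1 arrays, against 8.56, 8.27 and 8.02 on the empty vector arrays. The lowest value was on MN1 replicate 1 and the groups overlapped. The difference was 0.11 ± 0.24 (SE), with an adjusted p of 0.884 (limma), and its sign turned without MN1 replicate 2 or empty vector replicate 3. Irf5, which drives inflammatory cytokine genes in macrophages and B cells, measured 10.08, 10.06 and 9.37 on the MN1 arrays, against 10.39, 9.90 and 9.03 on the empty vector arrays. Replicate 3 was the lowest in both groups. The difference was 0.06 ± 0.37 (SE), with an adjusted p of 0.960 (limma), and it was -0.006 after quantile normalization.

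Irf9 and Irf1 act downstream of the interferon receptors, and Irf2 opposes Irf1. Irf9 measured 9.22, 8.80 and 9.16 on the MN1 arrays, against 8.9996, 8.47 and 8.65 on the empty vector arrays. MN1 replicates 1 and 3 lay above every empty vector array and MN1 replicate 2 did not. The difference of Irf9 was 0.35 ± 0.18 (SE), with means of 9.06 ± 0.23 and 8.71 ± 0.27 for MN1 and empty vector (SD, n = 3 each) and an adjusted p of 0.595 (limma). The difference was 0.20 ± 0.20 with the Y-linked mean as a covariate, and 0.23 ± 0.19 without empty vector replicate 2.

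Irf1 spread widely among the MN1 arrays, at 10.56, 9.57 and 9.003, against 9.84, 9.33 and 9.29 on the empty vector arrays. The highest and the lowest of the 6 values were both on MN1 arrays. The difference was 0.22 ± 0.39 (SE), with an adjusted p of 0.858 (limma), and it was -0.20 ± 0.25 without MN1 replicate 1. The second Irf1 probe set, which rests on a single transcript accession, was dimmer and went the other way, at 6.78 ± 0.41 with MN1 and 6.97 ± 0.38 with empty vector (SD, n = 3 each), a difference of -0.19 ± 0.27 (SE). Irf2 was the steadiest of the 8 genes within the MN1 group, at 9.30, 9.21 and 9.17, against 9.44, 8.97 and 8.69 on the empty vector arrays. The highest and the lowest of its values were both on empty vector arrays. The difference of Irf2 was 0.19 ± 0.20 (SE), with an adjusted p of 0.739 (limma), and it was 0.02 ± 0.17 without empty vector replicate 3 and 0.40 ± 0.13 without empty vector replicate 1.

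The haematopoietic members Irf8 and Irf4 pointed in opposite directions, and neither stood clear of its replicate spread. Irf8 measured 9.74, 8.69 and 9.40 on the MN1 arrays, against 8.70, 9.20 and 8.80 on the empty vector arrays. MN1 replicates 1 and 3 were the highest of all and MN1 replicate 2 the lowest. The difference was 0.37 ± 0.28 (SE), with means of 9.27 ± 0.54 and 8.90 ± 0.26 for MN1 and empty vector (SD, n = 3 each) and an adjusted p of 0.674 (limma). Leaving out MN1 replicate 2 gave 0.67 ± 0.20, and leaving out MN1 replicate 1 gave 0.14 ± 0.26. The mean of the monocyte and macrophage markers did not overlap between the groups, and conventional dendritic cell markers, higher for 4 of 8 genes, had means of 6.63 to 7.19 on MN1 arrays and 6.57 to 6.94 on empty vector arrays. Their part in the Irf8 difference was not tested.

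Irf4 was the most variable of the 8 genes and the only one lower with MN1. It measured 7.91, 6.02 and 7.91 on the MN1 arrays, against 8.53, 6.91 and 7.61 on the empty vector arrays. Replicate 2 was the lowest in each group. The difference was -0.41 ± 0.62 (SE), with means of 7.28 ± 1.09 and 7.68 ± 0.81 for MN1 and empty vector (SD, n = 3 each) and an adjusted p of 0.832 (limma). It was 0.22 ± 0.46 without MN1 replicate 2, 0.02 ± 0.65 without empty vector replicate 1, and -1.05 ± 0.66 with the Y-linked mean as a covariate. B cell markers, of a lineage that uses Irf4, had means of 6.43, 5.45 and 7.19 on MN1 arrays, against 5.83, 5.63 and 7.56 on empty vector arrays, and their part in the Irf4 values was not tested.

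**Figure D2:**
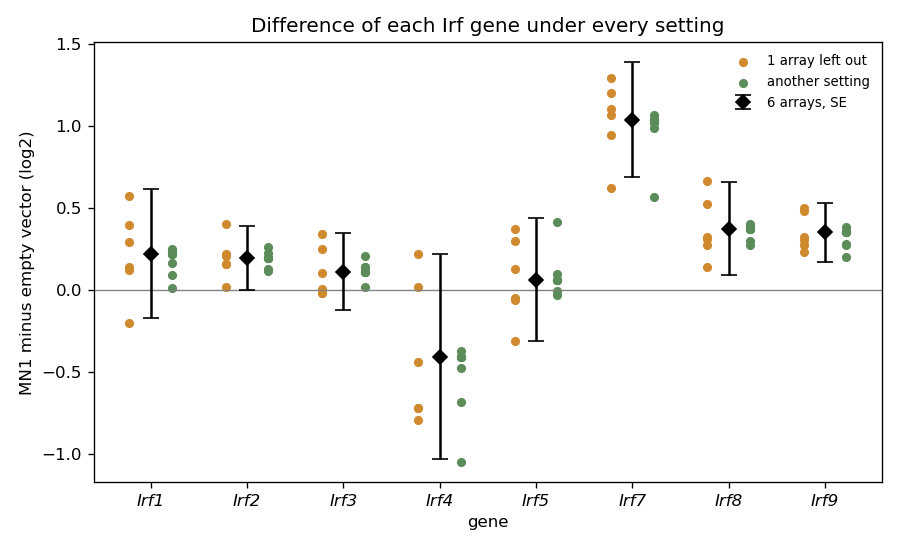
Log2 difference, MN1 minus empty vector, of each Irf gene: black diamonds with SE bars for all 6 arrays, orange points with 1 array left out, green points for the other settings. Irf7 ranged from 0.57 to 1.29 and Irf9 from 0.20 to 0.50 on the positive side, and the points of Irf1, Irf3, Irf4 and Irf5 fell on both sides of 0.

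The partners of the family were divided. Of 12 measured partners and cofactors, 6 were higher and 6 lower, the median difference was -0.0004, and 0 passed the test in either direction. In 1 of the 12 every MN1 value was higher, and in 1 every MN1 value was lower, against 5.71% and 10.3% of all genes. Stat2, the partner of Irf9, measured 9.97, 9.90 and 9.96 with MN1, against 9.65, 9.38 and 8.87 with empty vector, without overlap, a difference of 0.64 ± 0.20 (SE) with an adjusted p of 0.584 (limma). Batf3, which acts with Irf8 in dendritic cell development, measured 6.32, 6.47 and 6.43 with MN1, against 7.51, 6.66 and 6.54 with empty vector, a difference of -0.50 ± 0.26 (SE), also without overlap. Its relatives Batf and Batf2 differed by -0.41 ± 0.41 and 0.35 ± 0.28, and Spi1, the Ets partner of Irf4 and Irf8, by -0.22 ± 0.24.

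Genes of the pathways that activate Irf3, Irf5 and Irf7 were higher for 17 of 25 measured members and lower for 8, with a median difference of 0.16 and 0 past the test in either direction. The largest differences were in the endosomal RNA sensors. Tlr7, the receptor for single-stranded RNA, measured 8.59, 8.01 and 7.81 with MN1, against 6.99, 6.40 and 7.27 with empty vector, a difference of 1.25 ± 0.29 (SE). Tlr8 differed by 1.101 ± 0.41 and Tlr3, the receptor for double-stranded RNA, by 0.84 ± 0.14, with an adjusted p of 0.584 for Tlr7 and Tlr8 and 0.579 for Tlr3 (limma). Tlr3 was dim, at 5.26 to 5.44 with MN1 and 4.35 to 4.73 with empty vector, where the array medians were 5.82 to 6.01. The cytoplasmic RNA helicase gene Dhx58 differed by 0.76 ± 0.22. The kinase genes that phosphorylate Irf3 and Irf7 lay closer to 0 or below it: Tbk1 differed by -0.01 ± 0.13 and Ikbke by -0.33 ± 0.33. The median of these genes was 0.04 without MN1 replicate 1.

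Among 17 measured interferon, receptor and signalling genes, 7 lay above and 10 below empty vector. The median was -0.01 and 0 passed the test. Every MN1 value was higher for 4 of the 17, Ifnar1, Ifnar2, Il10rb and Stat2. Every MN1 value was lower for 2, Ifna2 and Jak2, the latter by -0.47 ± 0.14 (SE). Over all genes these shares were 5.71% and 10.3%. Both chains of the type I receptor were higher without overlap, Ifnar1 by 0.32 ± 0.11 (SE) and Ifnar2 by 0.53 ± 0.17. The chains of the gamma receptor, Ifngr1 and Ifngr2, differed by -0.12 ± 0.31 and 0.03 ± 0.16. Il10rb, a chain of the lambda receptor, differed by 0.58 ± 0.21, the interferon gene Ifna2 by -0.57 ± 0.18, and Usp18, which dampens the type I receptor, by 0.55 ± 0.47. Ifna2 was dim, at 4.92 to 5.11 with MN1 and 5.21 to 5.89 with empty vector, each value below the median of its array.

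Interferon-stimulated genes, the shared targets of the family, were higher for 30 of 32 measured members, where 43.3% of all genes were. The median was 0.50, beside -0.03 over all genes and 0.02 over those outside the dimmest 40%, and 0 passed the test. In 6 of the 32 every MN1 value exceeded every empty vector value, as in 5.71% of all genes. Their mean was 9.68, 9.90 and 9.45 on MN1 arrays, against 9.67, 8.75 and 9.26 on empty vector arrays. As for Irf7, the lowest array was empty vector replicate 2, but here the groups overlapped. The largest differences were -1.60 ± 0.86 (SE) in the chemokine gene Cxcl10, 1.16 ± 0.43 in Ifit3, 1.13 ± 0.44 in Oasl2 and 1.07 ± 0.55 in Mx2. The median was 0.33 without empty vector replicate 2, where 25 of the 32 were higher.

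**Figure D3:**
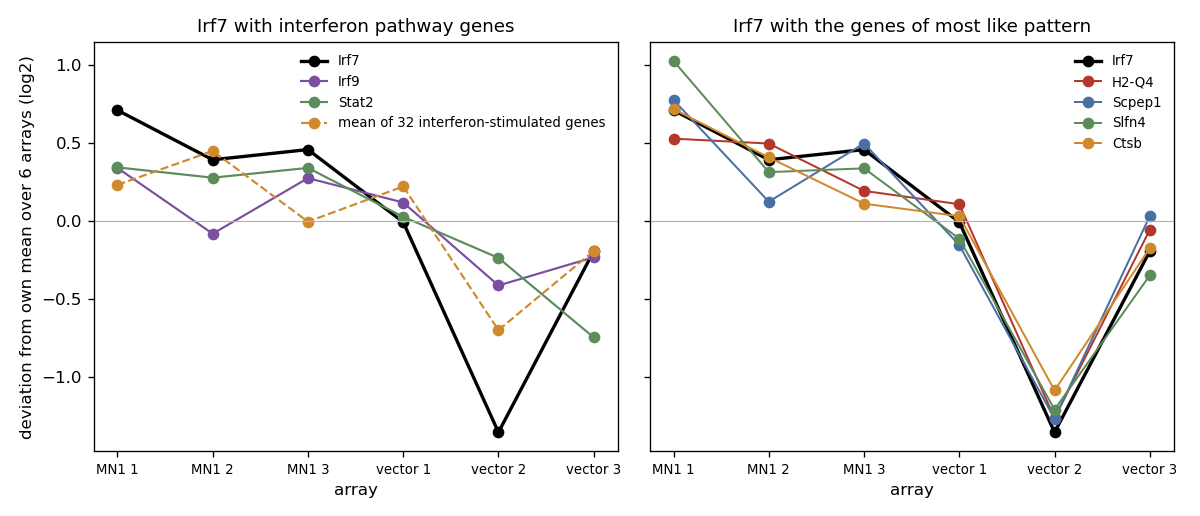
Deviation of each gene from its own mean over the 6 arrays (log2), with MN1 arrays on the left and empty vector arrays on the right of each panel; lines only join the points of a gene. Left, Irf7 with Irf9, Stat2 and the mean of 32 interferon-stimulated genes. Right, Irf7 with the 4 genes of most like pattern, all with their lowest point on empty vector replicate 2, as their choice by likeness to Irf7 would give.

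Targets of interferon gamma and Irf1 were higher for 15 of 20 measured members and lower for 5. Their median was 0.33 and 0 passed the test. For 4 of the 20 every MN1 value was higher and for 2 lower, against 5.71% and 10.3% of all genes. Il15, a cytokine that sustains natural killer cells, differed by 0.95 ± 0.23 (SE), the immunity-related GTPase gene Iigp1 by 0.94 ± 0.39, and Cd274, which encodes the checkpoint ligand PD-L1, by 0.93 ± 0.48. The regulators of the antigen presentation classes went opposite ways: Nlrc5, the class I transactivator, differed by 0.81 ± 0.25, and Ciita, the class II transactivator, by -0.81 ± 0.13, each without overlap between the groups and with adjusted p values of 0.584 and 0.579 (limma). Nlrc5 read 8.37 to 9.83 over the arrays and Ciita 5.95 to 7.07, where the array medians were 5.82 to 6.01. The class II gene H2-Ab1 differed by -0.004.

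Genes linked to the haematopoietic members showed no common direction. Of 11 measured genes linked to Irf8, 6 were above empty vector and 5 below, and 0 passed the test. Their median was 0.07, and ran from -0.002 without empty vector replicate 1 to 0.26 without MN1 replicate 2. Ly86, a partner of a Toll-like receptor relative, differed by 1.15 ± 0.59 (SE), Id2, a regulator of dendritic cell development, by 0.64 ± 0.27, Il12b by -0.41 ± 0.12, the monocyte factor gene Klf4 by -0.004 ± 0.44 and the cystatin gene Cst3 by 0.31 ± 0.21. Il12b was dim, at 5.21 to 5.44 with MN1 and 5.57 to 5.88 with empty vector, each value below the median of its array. Of 11 measured genes linked to Irf4, 6 were above empty vector and 5 below, and 0 passed the test. Their median was 0.05 and their mean -0.14. For 2 of the 11 every MN1 value was lower and for 0 higher, against 10.3% and 5.71% of all genes. Ccl22, a chemokine gene, measured 5.21, 5.97 and 5.90 with MN1, against 7.61, 6.07 and 8.06 with empty vector, a difference of -1.56 ± 0.52 (SE) without overlap. Its neighbour in function Ccl17 differed by -1.55 ± 0.88, Retnla by 0.95 ± 1.69 and the checkpoint ligand gene Pdcd1lg2 by 0.85 ± 0.65. Without MN1 replicate 1, 3 of these 11 genes were higher and the median was -0.18, and without MN1 replicate 3 the median was 0.28.

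**Figure D4:**
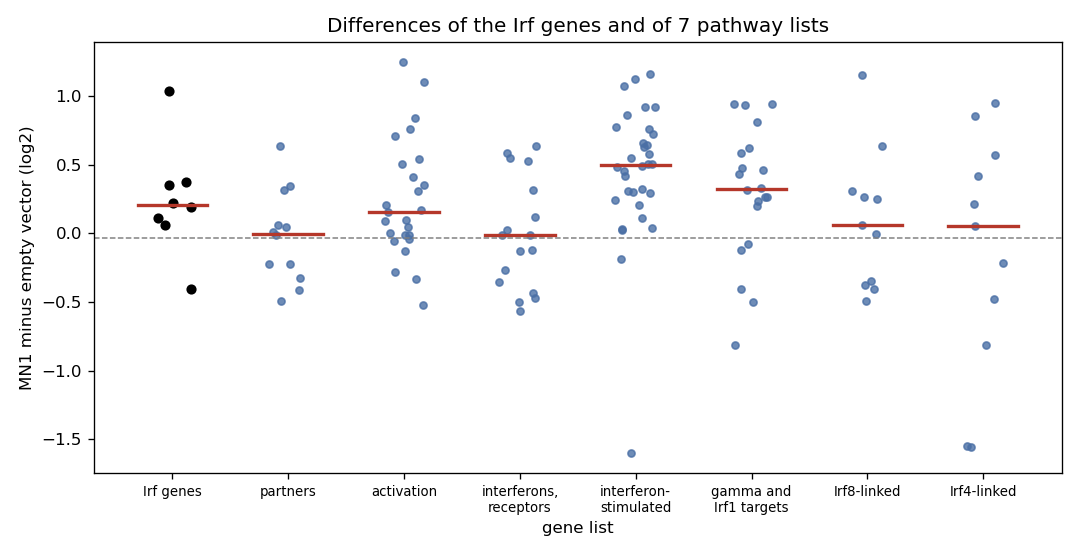
Log2 differences, MN1 minus empty vector, of the 8 Irf genes (black) and of the genes of 7 pathway lists (blue), with red bars at the medians and a dashed line at the median of all genes, -0.03. The interferon-stimulated list has the highest median, 0.50, and none of the points passed adjustment over all genes.

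The 3 Irf genes with the widest spread over the arrays were Irf4, Irf7 and Irf1, and the genes closest to each in pattern were found by the root mean square difference between deviations from the gene's own mean over the 6 arrays. For Irf7, whose own deviations had a root mean square of 0.68, the closest were H2-Q4 at 0.16, Scpep1 at 0.16, Slfn4 at 0.17 and Ctsb at 0.18. H2-Q4 is a class I histocompatibility gene with near-identical relatives whose transcripts may reach the same probe set, Scpep1 encodes a carboxypeptidase, Slfn4 is a Schlafen gene of myeloid cells and Ctsb encodes the lysosomal protease cathepsin B. All 4 were lowest on empty vector replicate 2, as genes picked for likeness to Irf7 would be. For Irf1, with a root mean square of 0.50, the closest were B4galt5, Arc, Ripor3 and Adm at 0.11 to 0.12. For Irf4, with 0.81, they were Tgm2 at 0.39 and Sdc4, Zfp36l1 and Pde4b at 0.50 to 0.52, so that no gene followed Irf4 as closely as those of the other pair. The likeness is over 6 arrays that share groups and normalization, and is a description.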

How the data were processed

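Biotin-labelled RNA of sorted marrow cells was measured on 6 one-colour Affymetrix arrays. The deposited values are log2 expression per probe set. The submitters' processing notes name RMA and no software version. Their range, 2.29 to 14.80, is that of a log2 scale. RMA understates differences of dim genes. All 6 value columns were used.

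Of 35557 probe sets, 21789 carry 1 gene symbol in GEO's platform annotation, 1621 several and 12147 none, and 21698 of the first were found in RefSeq's mouse genes through their gene ID. The probe set with the highest mean was kept for each gene. Groups were taken from the sample titles. Differences were tested with limma 3.58.1 in R 4.3.3 (lmFit, eBayes, no block, 2.43 prior and 4 residual degrees of freedom), adjusted by Benjamini-Hochberg over 19938 genes at a threshold of 0.05, and each Irf gene also by an exact permutation test. Precision is limited by 3 arrays a group, and nothing in the labels ties an array to an animal, so p-values measure the spread between arrays. The fit was also run on simulated data, with noise drawn independently for each gene and array. Such data lack variation that genes share within an array, so that run cannot tell how the fit handles it.

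The genes and lists were chosen with earlier results of these data known. Of 220 list entries 200 were measured. Besides all Irf genes and Mn1, the text names the 4 members of each pathway list with the largest difference, 13 pathway genes fixed by name, and the 4 genes closest in pattern to the 3 most variable Irf genes. Jak2 and some cell type markers are named too. No set test was run. Alternatives were the replicate block, median centring, quantile normalization, leaving out the dimmest 40%, averaging all probe sets of a gene, testing every probe set, an intensity trend together with a robust prior, weights per array, the Y-linked mean (3 measured genes) as a covariate, a threshold of 0.1, and each array left out. No genome was used.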

Additional observations from a re-analysis of the deposited data

How the results depend on the processing

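No Irf gene and no gene at all was called at an adjusted p under 0.05 in any of the 15 alternative fits, or under 0.1 in the fit of all arrays (0 by limma in each); the lowest adjusted p of an Irf gene was 0.4999, for Irf7 and Irf9 with the replicate block. Irf2, Irf7, Irf8 and Irf9 kept their direction in all of them. With 1 array left out, the log2 difference ran from -0.20 to 0.57 for Irf1, -0.0204 to 0.34 for Irf3, -0.79 to 0.22 for Irf4 and -0.31 to 0.37 for Irf5. Irf5 also turned to -0.006 after quantile normalization and -0.028 with array weights. Beside the genes at an unadjusted p under 0.05, 832 higher and 843 lower, stood 977 and 400 after median centring, 662 and 369 without the dimmest 40%, 561 and 721 after quantile normalization and 673 and 1000 with an intensity trend and robust prior. With the replicate block these were 1140 and 840, and the difference of Irf7 was 1.04 ± 0.25 (SE). The block left Irf4 at -0.41 ± 0.26 (SE). Arrays with the same number correlated in their deviations by 0.07 to 0.32 across genes, other pairs by -0.50 to 0.44. Not every array correlated best with its own number. The Y-linked mean, however, was lowest on replicate 2 and highest on replicate 3 in both groups. Whether the numbers pair the arrays was thus not settled, and the main fit took no pairs. The cause of the shifts between settings was not tested. The Irf genes all passed the filter on dim probe sets.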
